A study of Mus musculus with 12 samples.

Results

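The genes described here are a set of interferon-stimulated antiviral genes of the mouse: the Ifit family genes Ifit1, Ifit2, Ifit3 and Ifit3b, the interferon-induced genes Ifi44 and Ifi35, the apolipoprotein L genes Apol9a and Apol9b, Rsad2 and Bst2. Of these 10 genes, 9 had a row among the 12591 genes of the expression table, and Rsad2 was not analysed here. They were chosen by their measured log2 CPM in these same libraries, the values of all 4 groups, so their levels and differences are given as a description, without tests. RNA was sequenced from PER2::LUC mouse embryonic fibroblasts, cells of C57 PER2::LUC mice, which carry the clock protein PER2 with luciferase joined to it. Confluent dishes received medium with 10 μM deazaneplanocin A (DZ, an inhibitor of the enzyme AHCY, which clears the by-product of methylation reactions), with 1 mM adenine, or with 1 mM S-adenosylmethionine (SAM, the methyl donor of the cell), and were lysed after 24 h. Control dishes (CTL) received none of these, and 3.3 mM HCl was present in all 4 groups, CTL included. Each group had 3 dishes, and since no source used here says that they came from separate embryos or cultures, p-values measure the spread between dishes only.

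Interferons are secreted when a cell detects foreign nucleic acid, and their receptors act through the kinases JAK1 and TYK2 on transcription factors, among them STAT2. STAT2 and IRF9 are part of a complex that binds the interferon-stimulated response element (ISRE) in the promoters of antiviral genes. Ifit proteins bind foreign RNA, and IFIT1 blocks the translation of mRNA whose cap lacks methylation of the ribose of the first nucleotide. BST2 (tetherin) holds budding enveloped viruses at the cell surface. IFI35 forms complexes with its relative NMI, and Apol9a and Apol9b encode intracellular relatives of the apolipoproteins L.

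The 9 genes lie on 5 chromosomes (coordinates of GRCm39, GENCODE vM39). The Ifit genes form a cluster on chromosome 19, from Ifit2 (start 34527932) over Ifit3 (34560899 to 34566443) and Ifit3b (34585328 to 34590801) to Ifit1 (34618271 to 34632174). This span of 104243 bases holds 6 protein-coding genes, and the other two, Ifit1bl1 and Ifit1bl2, had no row in the table. Apol9a (77287989 to 77295335) and Apol9b (77613239 to 77620585) lie on chromosome 15 on opposite strands. Ifi44 lies on chromosome 3 (151436559 to 151455625), Ifi35 on chromosome 11 (101339221 to 101352693) and Bst2 on chromosome 8 (71986895 to 71990114). Ifit1 lies within the antisense gene Ifit1bl2, and Ifi35 overlaps the antisense gene Vat1, whose level was 8.72 log2 CPM in CTL (CPM are the reads of a gene relative to the size of the library) and differed by -0.18 in DZ, by -0.29 in adenine and by -0.46 in SAM. The libraries kept the strand of the RNA, but whether the strand was used in counting is not given in the sources used here, so reads of the overlapping parts may not be told apart.

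The promoter windows of these genes were read from RefSeq (table of build GRCm38.p6, 250 bases before to 50 bases after each start) and placed on GRCm39 by an exact match of the sequence. The ISRE was searched on both strands as GAAA, then 2 bases of any kind, then GAAA. Counted by promoter, it was found in 3.44% of all 32851 promoters. Counted by gene, at any of its starts, it was found in 3.65% of the 8821 genes of the table with a promoter. In the set it was found in 6 of the 9 genes, Ifit1, Ifit3, Ifit3b, Apol9a, Apol9b and Bst2. Each promoter of these 6 genes held 2 matches. The 160 bases from position -200 to position -41, counted from the start as 0, are printed for 4 of them, and for Ifit2 and Ifi35 because the motif was not found there, 5′ to 3′ on the strand of the gene with the ISRE matches in capitals:
Ifit1 (chr19:34618089-34618248, plus strand): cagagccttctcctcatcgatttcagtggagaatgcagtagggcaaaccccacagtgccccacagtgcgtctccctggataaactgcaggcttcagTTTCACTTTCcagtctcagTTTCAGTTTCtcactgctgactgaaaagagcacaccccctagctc
Ifit3 (chr19:34560729-34560888, plus strand): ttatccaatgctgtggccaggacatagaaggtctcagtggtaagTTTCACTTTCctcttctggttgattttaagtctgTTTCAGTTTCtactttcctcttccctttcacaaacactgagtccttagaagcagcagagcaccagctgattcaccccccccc
Apol9a (chr15:77295321-77295480, minus strand): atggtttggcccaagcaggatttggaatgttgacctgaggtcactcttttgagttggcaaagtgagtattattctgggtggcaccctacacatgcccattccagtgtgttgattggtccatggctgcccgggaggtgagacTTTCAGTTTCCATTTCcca
Bst2 (chr8:71990157-71990316, minus strand): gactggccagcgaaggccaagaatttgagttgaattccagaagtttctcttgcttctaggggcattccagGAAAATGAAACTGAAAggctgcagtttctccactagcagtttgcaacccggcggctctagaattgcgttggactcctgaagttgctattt
Ifit2 (chr19:34527894-34528053, plus strand): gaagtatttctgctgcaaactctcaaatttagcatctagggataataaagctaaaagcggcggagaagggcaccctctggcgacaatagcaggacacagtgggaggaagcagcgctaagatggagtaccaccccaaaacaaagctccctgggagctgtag
Ifi35 (chr11:101339038-101339197, plus strand): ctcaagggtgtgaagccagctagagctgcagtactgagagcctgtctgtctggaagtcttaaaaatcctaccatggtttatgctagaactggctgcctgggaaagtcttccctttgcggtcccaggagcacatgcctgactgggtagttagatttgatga

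In Ifit1 the matches lay at positions -104 to -95 and -85 to -76, and in Ifit3 at positions -156 to -147 and -122 to -113. In Apol9a (-59 to -50 and -53 to -44) and Bst2 (-130 to -121 and -124 to -115) the 2 matches overlapped each other. The promoter windows of Apol9a and Apol9b shared an identical run of 281 bases, and those of Ifit3 and Ifit3b a run of 169 bases, so that neither pair gives 2 independent sequences. Ifit1 and Ifit3 shared no identical run longer than 13 bases. A looser form of the motif, with GAA at its end, was also present in Ifi44 across the RefSeq start and in 8.56% of all promoters. The gamma-activated site (GAS), searched as TTC, then 3 bases of any kind, then GAA and overlapping an ISRE match in Bst2, was found in Bst2, Ifi35 and Ifit2 and in 8.30% of all promoters. RefSeq gives Ifit2, Apol9a and Apol9b 2 starts each, and the letters of a window do not show that a factor binds there.

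**Figure D1:**
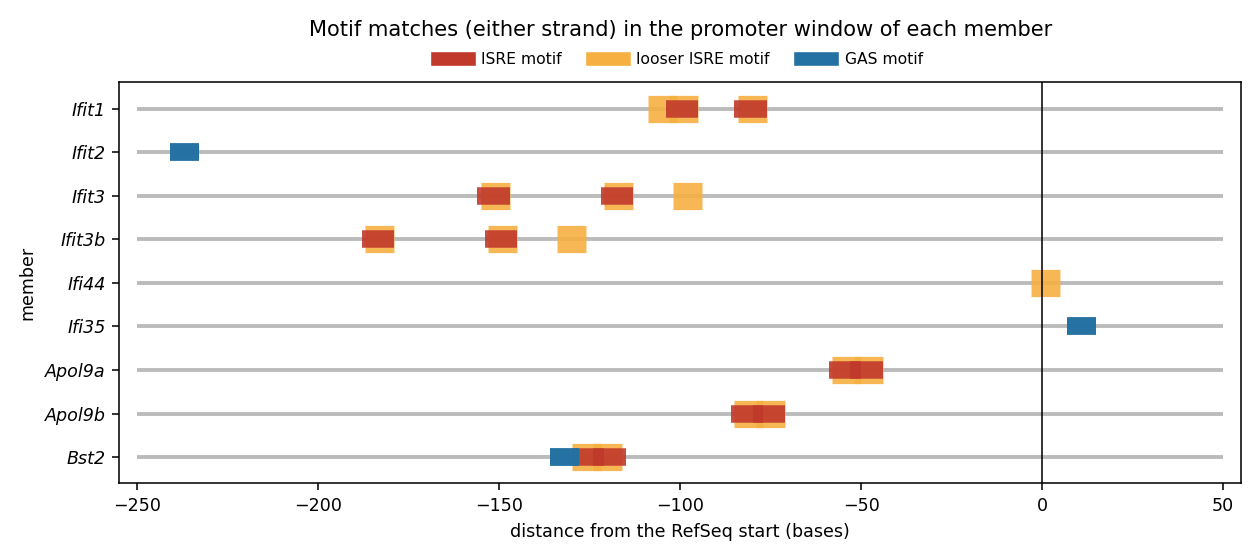
Position of each motif match in the promoter window of the 9 genes, against the distance in bases from the RefSeq start at 0 (1 start is drawn for genes with 2). Red marks the ISRE motif, orange the looser ISRE motif and blue the GAS motif; Ifit1, Ifit3, Ifit3b, Apol9a, Apol9b and Bst2 each carry 2 red marks between -188 and -44, and Ifit2, Ifi44 and Ifi35 carry none.

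The paralogs of the set can exchange reads. The coding sequences of Ifit3 and Ifit3b were identical at 1198 of 1209 bases (99.1%), and those of Apol9a and Apol9b at 916 of 930 bases (98.5%). Of all stretches as long as 1 read (76 bases) in the transcripts, 35.7% of those of Ifit3 also occurred in Ifit3b, and 47.6% of those of Apol9a in Apol9b. Other pairs of Ifit genes were identical at 57.5% to 65.8% of the aligned coding bases. Ifit1 shared 1.8% of such stretches with Ifit1bl2 and 5031434C07Rik, and Ifit2, Ifi44, Ifi35 and Bst2 shared none with another gene. Stretches were compared in the direction of each transcript only, so antisense overlap such as that of Ifi35 with Vat1 was not searched. The ratio of Ifit3 to Ifit3b reads was between 3.69 and 4.04 in all 12 libraries, and that of Apol9a to Apol9b between 1.29 and 2.43. The levels of Ifit3, Ifit3b, Apol9a and Apol9b are therefore uncertain as separate values. Each pair is described side by side below, but its genes enter the counts, medians and correlations of the set separately.

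Whole reads could be derived from the deposited values, and the libraries held between 45649534 and 56789090 reads on the listed genes. The fewest reads for a gene of the set were 79, for Ifi44 in adenine. Of 10 fibroblast markers 9 were listed, among them Col1a1, Col1a2, Pdgfra and Vim, and their summed level was between 23722 and 24207 CPM in CTL, 30296 and 30931 CPM in DZ, 27296 and 29777 CPM in adenine, and 19265 and 20663 CPM in SAM. Of 14 leukocyte markers Cd68 alone was listed, at 2.99 to 3.96 CPM in CTL, 2.70 to 3.75 CPM in DZ, 10.8 to 12.3 CPM in adenine and 15.5 to 17.6 CPM in SAM, whereas Ptprc, Csf1r and Tyrobp were not listed. None of 5 endothelial and 6 epithelial markers was listed. The part of other cells in the results was not tested, and in bulk RNA a change in the number of responding cells and a change of RNA per cell cannot be told apart.

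All 9 genes stood higher in DZ than in CTL. Summed over the set, they reached 235 to 246 CPM in the CTL dishes and 1089 to 1139 CPM in the DZ dishes, whereas the adenine dishes held 150 to 158 CPM and the SAM dishes 230 to 239 CPM. The differences between DZ and CTL ranged from 1.28 for Ifi35 to 3.35 for Ifit1 on the log2 scale, with a median of 2.55 beside -0.0057 for all genes. In adenine, 8 of the 9 genes stood below CTL on average, with a median difference of -1.0 beside -0.0030 for all genes, and the differences ran from -3.20 for Ifi44 to 0.042 for Ifit2. In SAM the set spread to both sides of CTL, from -2.42 for Ifi44 to 0.49 for Ifit2, with a median of -0.087 beside -0.015 for all genes. SAM replicate 3 stood apart from the other SAM libraries over all genes: the chi-square of its reads against theirs was 19.1 and 15.7 per degree of freedom, where the other pairs of replicates had 4.76 to 7.07. It was the highest SAM dish for Ifit1, Ifit3b, Ifi35, Apol9b and Bst2. Without it the median of the set in SAM was -0.097 and Apol9b differed from CTL by -0.097 rather than 0.13, while Ifit1 (-1.55), Ifi44 (-2.46), Bst2 (-0.30) and Ifit2 (0.50) kept their sign and their call. All 3 treatments share the same CTL dishes, so these differences are not independent of one another.

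**Figure D2:**
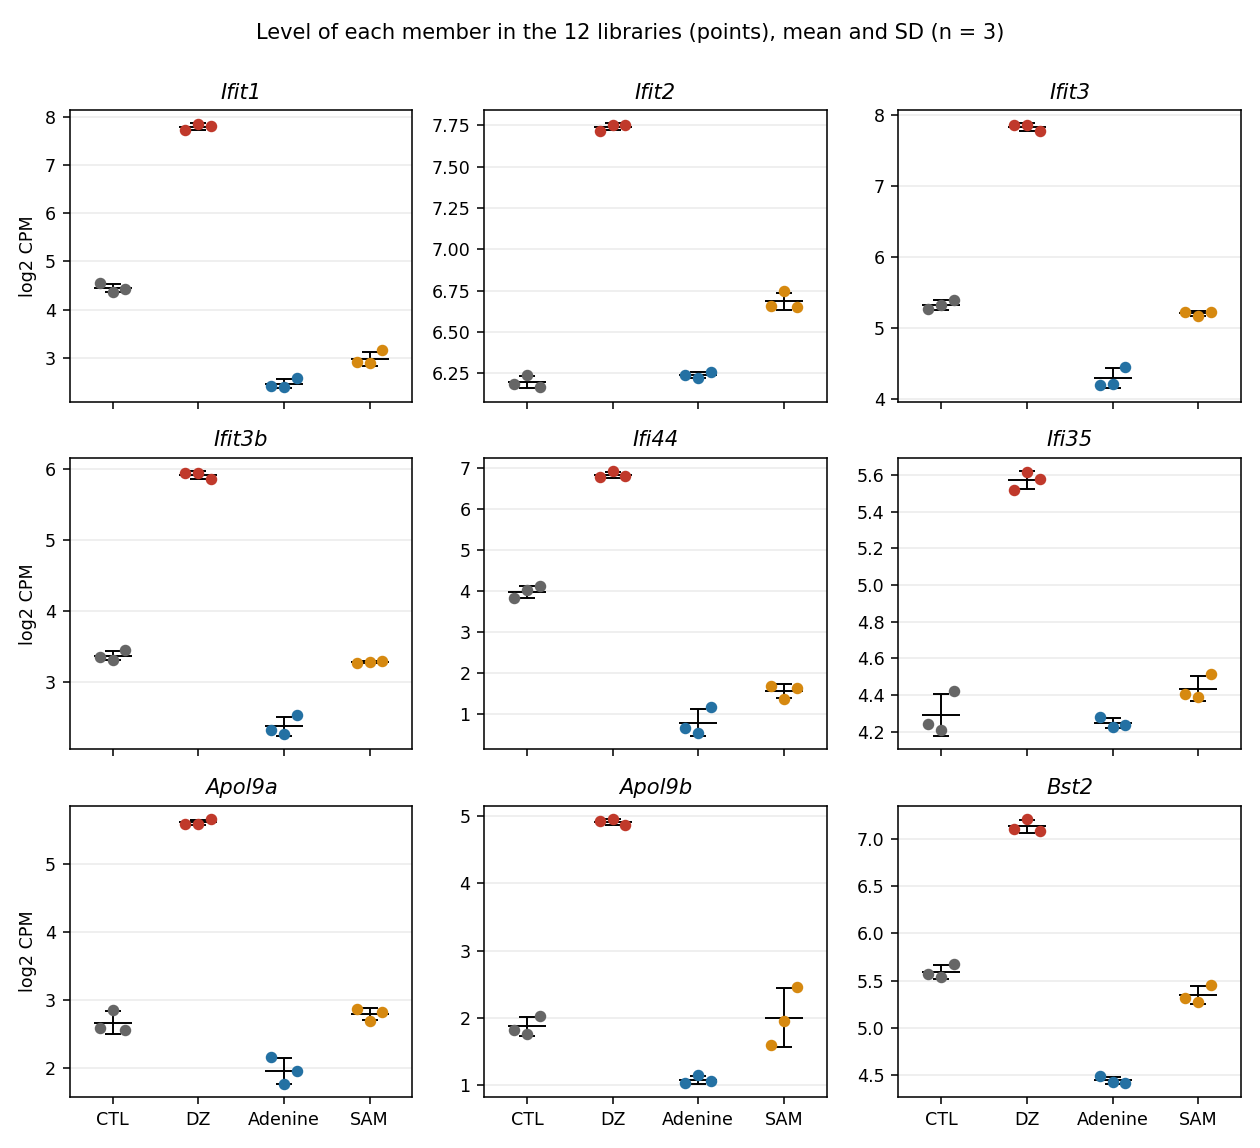
Level (log2 CPM, y axis) of each of the 9 genes in every library, by treatment, with the mean (long bar) and SD (whiskers) of the 3 dishes; each panel has its own scale. The DZ dishes are above all other dishes in each panel, and the adenine dishes are below CTL in every panel except those of Ifit2 and Ifi35, where the groups overlap; groups did not overlap for 65.4% of all genes in DZ and 74.7% in adenine.

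Counts of the set past the threshold used for all genes (limma, adjusted p under 0.01) are stated beside the share of all genes, and nothing is read from them because the same values chose the set. In DZ, 9 of 9 were called, all higher, beside 45.9% of all genes called (22.6% higher and 23.4% lower). In adenine, 7 of 9 were called, all lower, beside 61.6% of all genes (30.6% higher and 31.0% lower). In SAM, 1 was called higher (Ifit2) and 3 lower (Ifit1, Ifi44 and Bst2), beside 69.3% of all genes (33.7% higher and 35.7% lower). Between SAM and adenine, 8 of 9 were called, all higher in SAM, beside 42.7% of all genes (20.8% higher and 22.0% lower).

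Ifit1 and Ifi44 had the widest range. Ifit1 read 4.55, 4.36 and 4.43 log2 CPM in the CTL dishes and 7.72, 7.85 and 7.81 in DZ, then 2.41, 2.40 and 2.57 in adenine and 2.91, 2.89 and 3.15 in SAM. No group overlapped another, and the order was DZ, CTL, SAM and adenine. Its log2 difference from CTL was 3.35 ± 0.076 in DZ, -1.99 ± 0.076 in adenine and -1.46 ± 0.076 in SAM (SE of the limma model here and below, n = 3), or 10.2-fold higher in DZ and 3.96-fold lower in adenine. In reads, the Ifit1 values in adenine rested on 286 to 293 reads per library and those in DZ on 10414 to 11384.

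Ifi44, whose product resembles GTP-binding proteins, read 3.84, 4.02 and 4.13 log2 CPM in CTL, 6.80, 6.93 and 6.81 in DZ, 0.68, 0.55 and 1.18 in adenine and 1.69, 1.38 and 1.66 in SAM. The same order held as for Ifit1, again with no overlap. Ifi44 was the gene of the set with the largest fall in both adenine (a log2 difference of -3.20 ± 0.14, 9.17-fold lower) and SAM (-2.42 ± 0.14, 5.35-fold lower), while its DZ difference was 2.85 ± 0.14. Adenine replicate 3 stood above the other two adenine dishes, and the SD of that group, 0.33 log2 CPM, was higher than the 0.17 of SAM, the 0.15 of CTL and the 0.074 of DZ.

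The Ifit3 pair, Bst2 and the Apol9 pair fell in adenine on average and lay close to CTL in SAM, a grouping made after the values were seen. Ifit3, a partner of other Ifit proteins, read 5.26, 5.33 and 5.39 log2 CPM in CTL, 7.86, 7.86 and 7.77 in DZ, 4.20, 4.22 and 4.46 in adenine and 5.23, 5.17 and 5.22 in SAM. The 3 SAM dishes lay just under the 3 CTL dishes, by a log2 difference of -0.12 ± 0.059, against -1.03 ± 0.059 in adenine and 2.50 ± 0.059 in DZ. Ifit3b lay between 3.32 and 3.45 log2 CPM in CTL, 5.86 and 5.95 in DZ, 2.26 and 2.53 in adenine, and 3.27 and 3.30 in SAM. Its profile followed that of Ifit3, with log2 differences of 2.55 ± 0.071, -1.0 ± 0.071 and -0.087 ± 0.071 in DZ, adenine and SAM. Under plain read totals, the SAM differences of Ifit3 and Ifit3b turned to 0.0015 and 0.034, so their sign depended on the scaling.

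Bst2 read 5.57, 5.53 and 5.68 log2 CPM in CTL, 7.11, 7.21 and 7.09 in DZ, 4.48, 4.42 and 4.42 in adenine, and 5.32, 5.27 and 5.46 in SAM. No groups overlapped. The difference in DZ was 1.54 ± 0.053, close to that of Ifit2, while the adenine difference was -1.15 ± 0.053, or 2.22-fold lower. In SAM Bst2 differed from CTL by -0.25 ± 0.053, which was -0.12 under plain read totals and then no longer past the threshold.

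Apol9b read 1.83, 1.76 and 2.03 log2 CPM in CTL, 4.92, 4.95 and 4.86 in DZ, 1.03, 1.15 and 1.06 in adenine, and 1.60, 1.95 and 2.46 in SAM. The SAM dishes spread over the whole range of CTL and beyond it, with an SD of 0.43, whereas the adenine dishes were all below CTL. Apol9a, its paralog, lay between 2.56 and 2.86 log2 CPM in CTL, 5.58 and 5.66 in DZ, 1.77 and 2.16 in adenine, and 2.70 and 2.87 in SAM. For both paralogs DZ stood highest, SAM and CTL overlapped, and adenine stood lowest. The log2 differences of Apol9a were 2.94 ± 0.10 in DZ, -0.71 ± 0.10 in adenine and 0.13 ± 0.10 in SAM, and those of Apol9b were 3.04 ± 0.16, -0.79 ± 0.16 and 0.13 ± 0.16.

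Ifit2 and Ifi35 were the genes of the set that adenine left near CTL. Ifit2 read 6.19, 6.24 and 6.17 log2 CPM in CTL, 7.72, 7.75 and 7.75 in DZ, 6.24, 6.22 and 6.26 in adenine, and 6.66, 6.75 and 6.65 in SAM. The adenine and CTL dishes overlapped (a log2 difference of 0.042 ± 0.033), while SAM stood above both, by 0.49 ± 0.033 over CTL, and DZ above SAM, by 1.54 ± 0.033 over CTL. Ifi35 lay between 4.21 and 4.42 log2 CPM in CTL, 5.52 and 5.62 in DZ, 4.23 and 4.28 in adenine, and 4.39 and 4.52 in SAM. DZ stood apart from the other groups by 1.28 ± 0.059 over CTL, while SAM overlapped CTL (0.15 ± 0.059) and the adenine difference was -0.044 ± 0.059. The difference of Ifi35 between SAM and CTL passed the threshold under plain read totals (0.27) and without CTL replicate 3.

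**Figure D3:**
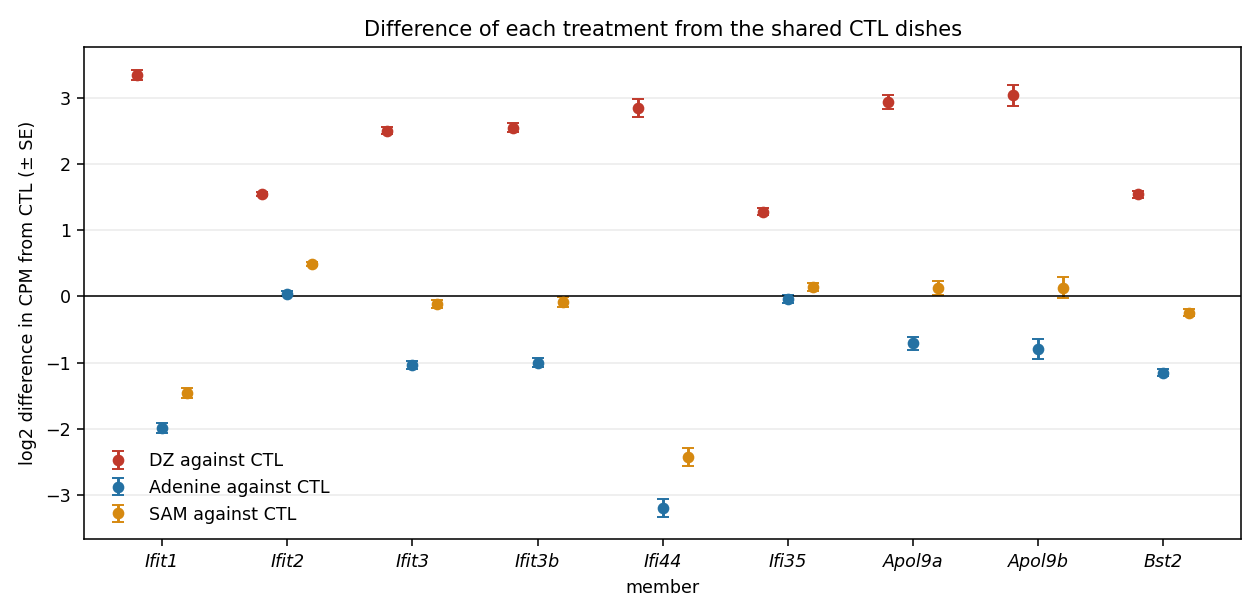
Difference from CTL (log2 scale, y axis) of each of the 9 genes (x axis) in DZ, adenine and SAM, with bars for the SE of the limma model. The DZ points lie between 1.28 and 3.35, and the adenine point is the lowest of the 3 for every gene.

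SAM and adenine can be set against each other without the CTL dishes. All 9 genes stood higher in SAM, and for none did the 2 groups of dishes overlap, beside 61.3% of all genes for which they did not. The log2 differences of SAM from adenine were 0.93 ± 0.16 for Apol9b, 0.91 ± 0.059 for Ifit3, 0.91 ± 0.071 for Ifit3b, 0.91 ± 0.053 for Bst2, 0.83 ± 0.10 for Apol9a and 0.78 ± 0.14 for Ifi44. They were smaller for Ifit1 (0.52 ± 0.076), Ifit2 (0.45 ± 0.033) and Ifi35 (0.19 ± 0.059). The median was 0.83 beside 0.0001 for all genes, and 0.74 without SAM replicate 3.

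Divided by the length of the canonical transcript, levels can be compared between genes where that transcript is the one expressed, which was not tested. The canonical transcript of Ifit1 has 7421 bases, of which 1389 are coding, beside 2938 bases for Ifi44. With a shorter form Ifit1 would stand higher in the order below. Among the genes without a near-identical copy, Bst2 had the highest level per kilobase in every group, 59.9 ± 3.2 CPM per kb in CTL (SD, n = 3), 175 ± 8.2 in DZ, 26.9 ± 0.71 in adenine and 50.6 ± 3.4 in SAM. Ifit2 (16.0 ± 0.43 CPM per kb) and Ifi35 (14.4 ± 1.2) followed in CTL. In adenine Ifit2 was at 16.5 ± 0.21 and Ifi35 at 13.9 ± 0.27, and Ifi44 (0.591 ± 0.15) and Ifit1 (0.738 ± 0.051) were lowest, close to each other. In DZ, Ifit2 reached 46.7 ± 0.64 and Ifit1 29.9 ± 1.4. Ifit3, Ifit3b, Apol9a and Apol9b are not placed in this order, because how their shared reads were split is not known.

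The 9 genes varied together across the 12 libraries. Over the 36 pairs of genes, Pearson's r had a median of 0.963 and a range of 0.767 (Ifit2 with Ifi44) to 1.00, where the points are the same 12 libraries and the treatment means carry most of the spread. Once each group mean was subtracted, the median r over the pairs fell to 0.217, with 23 of 36 pairs positive and a range of -0.564 to 0.913, beside a median of 0.007 for the genes of the set with all other genes. Ifit3 and Ifi44 (0.91), Ifit3 and Ifit3b (0.90), and Ifi35 and Bst2 (0.89) deviated most alike between dishes of a group. Ifit3 and Ifit3b can exchange reads, and the part of this in their value was not tested. Adenine replicate 3 stood above the other adenine dishes for Ifit3 (4.46 log2 CPM), Ifit3b (2.53) and Ifi44 (1.18). The r of these genes without that library was not taken. Apol9a and Apol9b, despite their shared reads, had a value of -0.30.

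Among all other genes, those most like the mean profile of the set over the 12 libraries (mean of z scores) were Lgals3bp (r = 0.998), Xaf1 (0.996), Irf9 (0.995), Isg15 (0.994) and Parp10 (0.994), followed by Oasl2, H2-T23, F730043M19Rik, Ifih1 and Ankrd1 (0.991). The nearest genes differed between the groups described above. For Ifit2 they were Parp14 (0.990), Parp12 (0.989) and Stat2 (0.987), and for Ifi35 they included Irgm1 (0.993) and Irgm2 (0.989). For Ifi44 they were Anxa8 (0.992), Nampt (0.989) and Masp1 (0.988), and for Ifit1 Pnpt1 (0.994), Rad23b (0.993) and Antkmt (0.992). A high r does not mean a change of like size. In DZ, Rad23b differed from CTL by 0.33 beside 3.35 for Ifit1, and Nampt by 0.39 beside 2.85 for Ifi44. Oasl2 and Xaf1 were nearest to Ifit3 and Ifit3b, 1600020E01Rik (0.995) and Oasl2 (0.992) to Bst2, and Lgals3bp and H2-T23 were among the nearest to Apol9a and Apol9b.

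The other interferon-stimulated effector genes were tested in the same limma model, on a list of 80 genes of which 50 were listed in the table. This list was chosen with earlier results of these data known, and genes under 1 CPM in any library are missing from it. In DZ, 47 of the 50 rose and none fell, beside 22.6% of all genes called higher, with a median log2 difference of 1.47. The 3 that were not called were Ifitm2 (-0.010), Ccl5 (-0.20) and Isg20 (-0.089). Isg15, the ubiquitin-like modifier that is linked to proteins after interferon, rose by 3.61 ± 0.094 (limma, adjusted p = 5.94e-13), above the 3.35 of Ifit1. Oasl2, a relative of the oligoadenylate synthetases, rose by 3.22 ± 0.11 (limma, adjusted p = 1.22e-11), and Tgtp2, an interferon-inducible GTPase with the close paralog Tgtp1, by 3.17 ± 0.11 (limma, adjusted p = 6.92e-12).

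In adenine, 11 of the 50 effectors rose (22.0%, beside 30.6% of all genes) and 22 fell (44.0%, beside 31.0%), with a median log2 difference of -0.14. The share called in either direction, 66.0%, was near the 61.6% of all genes. Oasl2 fell by 1.68 ± 0.11 (limma, adjusted p = 2.87e-09) and Ifi207, of the family of DNA-binding interferon-inducible proteins, fell by 1.55 ± 0.11 (limma, adjusted p = 3.16e-09). Slfn9, of the Schlafen family, rose by 1.79 ± 0.051 (limma, adjusted p = 1.73e-13).

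In SAM, 22 effectors rose (44.0%, beside 33.7% of all genes) and 12 fell (24.0%, beside 35.7%), with a median log2 difference of 0.14. The share called, 68.0%, was about the 69.3% of all genes. With plain read totals in place of the deposited scaling the split was 28 higher and 9 lower, as that scaling moved the median of all genes in SAM from -0.015 to 0.11. Tgtp2 rose by 2.45 ± 0.11 (limma, adjusted p = 7.32e-12), Slfn9 by 2.15 ± 0.051 (limma, adjusted p = 9.57e-15) and Tgtp1 by 2.14 ± 0.098 (limma, adjusted p = 1.54e-11), beside 0.49 for Ifit2, the highest of the set. Isg15 differed by -0.62 (limma, adjusted p = 1.92e-05) and Ifi207 by -0.77 (limma, adjusted p = 7.55e-06), while Oasl2, at -0.31, was not called. Between SAM and adenine, 32 effectors stood higher in SAM (64.0%, beside 20.8% of all genes) and 3 lower (6.0%, beside 22.0%), with a median of 0.33, and Tgtp2 (1.42), Oasl2 (1.37) and Tgtp1 (1.37) differed most.

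**Figure D4:**
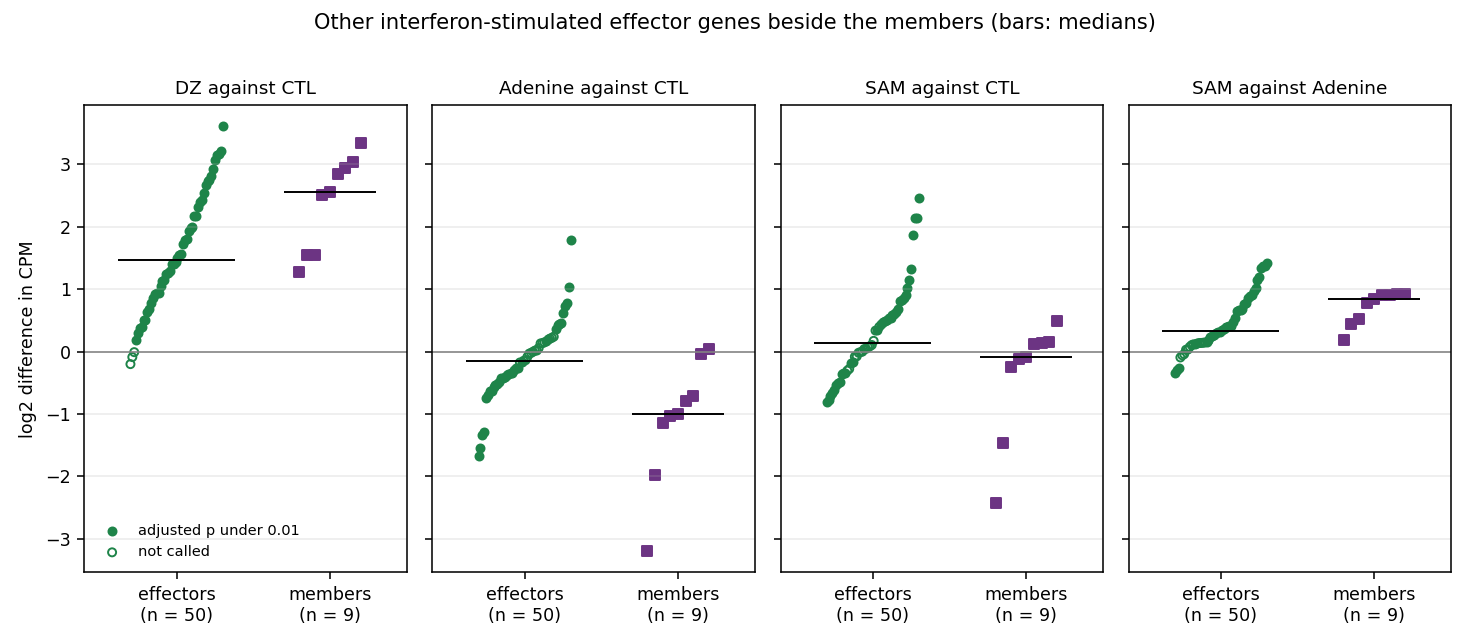
Log2 difference in CPM of the 50 other effector genes (green circles, filled where the limma adjusted p is under 0.01, open where it is not) and of the 9 genes of the set (purple squares), sorted by value, in 4 comparisons, with bars at the medians. In DZ the medians are 1.47 and 2.55, in adenine -0.14 and -1.0, in SAM 0.14 and -0.087, and between SAM and adenine 0.33 and 0.83.

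The effectors can also be listed by the ISRE motif, with no test of the difference. Of 42 effectors with a promoter in the table, 19 (45.2%) held it, and their median log2 difference in DZ was 2.31, against 1.25 for the 23 without it. In adenine the medians were -0.021 with the motif and -0.085 without, and in SAM 0.34 and 0.17. In the set, the genes without the motif were Ifit2 and Ifi35, near CTL in adenine, and Ifi44, which fell most.

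Of 21 relatives and genomic neighbours of the set, 6 were listed. Nmi, the partner of Ifi35, rose by 1.30 ± 0.11 in DZ (limma, adjusted p = 1.59e-07) and was not called in adenine (-0.043) or SAM (0.21), as Ifi35 itself was not. Apol7a, which lies near Apol9a on chromosome 15, rose by 1.12 ± 0.12 in DZ (limma, adjusted p = 1.88e-06). It rose by 1.03 ± 0.12 in adenine (limma, adjusted p = 1.8e-06) and by 2.12 ± 0.12 in SAM (limma, adjusted p = 2.65e-10). The Apol9 genes had -0.71 and -0.79 in adenine and 0.13 in SAM. Apol6, another apolipoprotein L gene, differed by 0.56 in DZ without passing the test, and rose by 1.41 ± 0.17 in adenine (limma, adjusted p = 2.16e-06) and by 1.86 ± 0.17 in SAM (limma, adjusted p = 6.8e-08). Pank1 and Lipa, neighbours of the Ifit cluster, rose in DZ by 0.48 (limma, adjusted p = 3.32e-06) and 0.33 (limma, adjusted p = 2.85e-07). Mov10, an RNA helicase, was on this list although it lies outside the Ifit and Apol9 regions, and it is also counted among the effectors. It rose by 0.19 in DZ, by 0.43 in adenine and by 0.90 in SAM. From adenine to SAM, Apol7a rose by 1.08, Mov10 by 0.47 and Pank1 by 0.46, each past the threshold.

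Of 32 genes for interferons, their receptors and signalling proteins, 19 were listed, and no interferon was among them. A gene is listed only with at least 1 CPM in every sample, so an interferon low in CTL alone would also be missing. In DZ, 5 rose and none fell, and 26.3% higher is near the 22.6% of all genes. Among them, Stat2 rose by 1.69 ± 0.048 (limma, adjusted p = 1.18e-12), Irf9 by 1.47 ± 0.044 (limma, adjusted p = 2.09e-12), Irf1 by 0.54 and Irf3 by 0.40. The receptor genes Ifnar1 (-0.0079) and Ifnar2 (-0.0056) were not called. In adenine, Irf9 fell by 0.77 ± 0.044 (limma, adjusted p = 3.27e-10) and Stat2 by 0.25, and Irf1, whose product also binds such elements, rose by 0.87 ± 0.047 (limma, adjusted p = 1.58e-10). In SAM, Irf1 rose by 1.20 ± 0.047 (limma, adjusted p = 2.35e-12) and Stat2 by 0.40, while Irf9 fell by 0.30. In total 5 rose and 5 fell in adenine (52.6% called, beside 61.6% of all genes), and 11 rose and 4 fell in SAM (78.9% called, beside 69.3%). Ifngr1, a receptor of interferon gamma, rose by 0.46 in adenine and by 0.64 in SAM, and Irf5 rose by 0.71 in SAM. From adenine to SAM, Stat2 rose by 0.65, the feedback inhibitor Socs1 by 0.53 and Irf9 by 0.47.

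Of 20 gene names for sensors of nucleic acid and their adaptors, among which Rigi and Ddx58 name the same gene, 15 were listed. Adar and Eif2ak2, which both rose in DZ, are also counted among the effectors. In DZ, 8 rose (53.3%, beside 22.6% of all genes) and 4 fell (26.7%, beside 23.4%), led by the cytosolic RNA receptors Dhx58 (2.31 ± 0.15, limma adjusted p = 9.12e-09), Rigi (1.62 ± 0.043, limma adjusted p = 7.86e-13) and Ifih1 (1.53 ± 0.082, limma adjusted p = 1.01e-09), while their adaptor Mavs fell by 0.22. In adenine, 2 rose and 5 fell (46.7% called, beside 61.6% of all genes), among them Ifih1 (-0.45 ± 0.082, limma adjusted p = 0.000151) and the Toll-like receptor adaptor Myd88 (-0.70 ± 0.046, limma adjusted p = 1.99e-09), and the DNA sensor Cgas rose by 0.46 ± 0.074 (limma, adjusted p = 4.41e-05). In SAM, 5 rose and 3 fell (53.3% called, beside 69.3% of all genes), with Dhx58 at 1.00 ± 0.15 (limma, adjusted p = 2.27e-05), Cgas at 0.73 ± 0.074 (limma, adjusted p = 2.29e-07) and the adaptor Ticam1 at -0.83 ± 0.058 (limma, adjusted p = 3.05e-09). The DNA sensor adaptor Sting1 was not called in any of the 3 treatments (0.043 in DZ, -0.068 in adenine and 0.0003 in SAM). From adenine to SAM, Dhx58 rose by 1.20 ± 0.15 (limma, adjusted p = 1.07e-05), and Ddx41 by 0.41, whereas Ticam1 fell by 0.41.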

How the data were processed

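Polyadenylated RNA of 12 dishes was sequenced as stranded, paired reads of 76 bases. Per the paper's methods and the submitters' processing notes, the authors trimmed reads with Trimmomatic, aligned them to GRCm39 with HISAT2, quantified transcripts with StringTie on GENCODE vM27, kept genes with at least 1 CPM in every sample and used edgeR. The table the authors deposited holds log2 CPM for 12591 genes, on normalized library sizes and with a prior count of 2. The lowest CPM on plain totals in the table was 1.01. The filter removes low genes, and log2 values with a prior count understate changes of genes with few reads.

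Whole reads were recovered by solving for the library sizes, and 100% of values came out whole (largest distance 0.0024, tolerance 0.1). They are estimates that StringTie made from coverage, so counting noise is not their whole error. The log2 values were tested with limma 3.58.1 in R 4.3.3 (lmFit, contrasts, eBayes with a variance trend), all 12 libraries in 1 fit, Benjamini-Hochberg over all genes, FDR 0.01, after a test on simulated data. "Rose", "fell" and "called" refer to this threshold, and "differed" to any value. The members and lists were chosen with earlier results of these data known. All members are named. From each of the 4 gene lists, up to 3 genes per comparison are named, those with the largest change among called genes whose groups do not overlap. Genes most like the set are the 10 with the highest r to its mean profile and the 3 for each member. Other genes were named after their values were seen, as examples of called or not called genes. A gene that these rules pick is not reported here. No set test was run.

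Symbols and positions are from GENCODE vM39 (12575 of 12591 identifiers matched), and promoters from RefSeq. Coding sequences were compared in place of proteins, which were not used here. Python 3.11.15, numpy 2.4.6, pandas 2.3.3, Biopython 1.88 and matplotlib 3.10.9 were used. Alternative settings were robust empirical Bayes, no variance trend, a filter at a mean log2 value of 3, a pseudocount of 1 CPM, plain read totals, voom on the recovered reads, a separate fit of 2 groups, a replicate block, an FDR of 0.05, and leaving out each library in turn.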

Additional observations from a re-analysis of the deposited data

How the results depend on the processing

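Differences of the genes of the set that passed the threshold kept their direction under all alternatives. The median log2 difference of the set in DZ was 2.48 with a pseudocount of 1 CPM, and that of SAM against adenine 0.70 with the same pseudocount and 0.74 to 0.90 with 1 library left out. The median in SAM, near 0, moved to -0.10 with the filter at a mean of 3, which removed Apol9b, changed sign to 0.034 with plain read totals, and moved to between -0.12 and -0.051 with 1 library left out. Signs also changed for values that were not called: Ifi35 in adenine, and Ifit3, Ifit3b and Apol9b in SAM (Apol9b was -0.097 at the lowest). Plain read totals ended the call of Bst2 in SAM, and Ifi35 in SAM against adenine was called with them (0.25). Plain read totals also moved the share of higher calls among all genes from 48.5% to 61.2% in SAM and from 48.6% to 63.2% for SAM against adenine. The effectors called numbered 33 to 48 in DZ, 25 to 36 in adenine, 24 to 39 in SAM and 26 to 37 for SAM against adenine over the alternatives, the lowest of each under the filter, which leaves fewer genes. Voom called 5608, 7742 and 8755 of all genes in DZ, adenine and SAM.

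Dishes with the same replicate number did not deviate together: r of the deviations of same-numbered libraries was -0.142 to 0.181 over 18 pairs. A fit with the replicate block called 48 effectors in DZ, 33 in adenine, 34 in SAM and 35 for SAM against adenine, beside 47, 33, 34 and 35 without it. Of the 48 in DZ, 47 were higher and 1 lower. The same split came with robust empirical Bayes, an FDR of 0.05, and without CTL replicate 2 or DZ replicate 3. Depth was between 45649534 and 56789090 reads, and the fewest reads for a gene of the set were 79.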
